A study of Mus musculus with 12 samples.

Results

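The response of wild type mouse embryonic fibroblasts (MEFs) to 24 h of tunicamycin was read from 4 of the 12 miRNA arrays in the series, chosen by their sample titles: 2 of untreated cultures and 2 of cultures kept for 24 h in 2 µg/mL tunicamycin. All cultures were of the C57BL/6 background, and those on these 4 arrays carried wild type XBP1 (labelled XBP1WT). The other 8 arrays held wild type MEFs after 12 h of tunicamycin and XBP1-deficient MEFs untreated, after 12 h and after 24 h, with 2 arrays in each group. The series text describes a pair of independent experiments per time point. The labels do not say whether the MEFs were primary or immortalised or how many embryos each line came from, so p-values measure the spread between these experiments only. Each array carried probes for 611 mouse miRNAs, of which 256 were tested because both arrays of at least 1 group detected them.

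Tunicamycin blocks the first step of N-linked glycosylation, so newly made glycoproteins misfold in the endoplasmic reticulum and the unfolded protein response starts. That response runs through the sensors IRE1, PERK and ATF6. IRE1 splices the mRNA of the transcription factor XBP1, and PERK acts through ATF4 and, under lasting stress, CHOP, which favours cell death. A miRNA finds its target mRNAs mainly through its seed, the short stretch near its 5′ end, so miRNAs with the same seed form a family. Each hairpin precursor can give a miRNA from either arm, and the less abundant arm is marked with a star here.

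The sequences below belong to the miRNAs the results turn on, beside relatives with the same seed that did not pass the test. They are RefSeq mature sequences (GRCm38.p6), written 5′ to 3′ with the seed, bases 2 to 8, in capitals. The first lines show the miRNAs that rose at 24 h, with let-7a, let-7c and miR-30e set beside their relatives for comparison.
miR-31: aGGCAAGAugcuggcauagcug
miR-31*: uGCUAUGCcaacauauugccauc
let-7b: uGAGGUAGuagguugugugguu
let-7e: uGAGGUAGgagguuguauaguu
let-7a: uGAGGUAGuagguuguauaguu
let-7c: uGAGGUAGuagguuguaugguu
miR-30a: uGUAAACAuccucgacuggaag
miR-30e: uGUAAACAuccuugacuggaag

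The next lines show miRNAs that fell at 24 h. Here miR-26b, miR-16 and miR-20a did not pass the test and are shown because they share a seed with miR-26a, miR-322 and miR-93.
miR-26a: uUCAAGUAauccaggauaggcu
miR-26b: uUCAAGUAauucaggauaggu
miR-322: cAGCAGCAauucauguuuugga
miR-16: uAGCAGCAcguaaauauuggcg
miR-103: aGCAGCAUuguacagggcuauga
miR-107: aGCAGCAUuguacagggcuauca
miR-93: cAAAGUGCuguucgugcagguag
miR-20a: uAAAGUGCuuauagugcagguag
miR-146a: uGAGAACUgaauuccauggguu
miR-146b: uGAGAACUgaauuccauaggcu
miR-152: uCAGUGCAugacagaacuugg

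These pairs are close in sequence. Aligned from the 5′ end, miR-103 and miR-107 differ at 1 of 23 positions, miR-146a and miR-146b at 2 of 22, and let-7b and let-7c at 1 of 22. Relatives this close may share probe signal on an array, so a change of one of them is uncertain as to which relative it belongs to.

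The 24 h arrays were dim. The summed signal of mouse miRNAs was 94800 and 108000 on the untreated arrays but 14100 and 32700 on the 24 h arrays, a mean 4.32-fold below untreated. The untreated arrays detected 193 and 199 mouse miRNAs and the 24 h arrays 120 and 158. The labelling spike-ins, synthetic RNAs added before labelling, read 154 and 80.6 on the untreated arrays and 27 and 72.1 on the 24 h arrays, and their part in the lower totals was not tested. These figures combine a pair of spike-ins that disagreed on the second 24 h array, at 329 and 15.8, so the spike-in scale used below is uncertain. The hybridisation spike-ins read 662 and 566 against 1470 and 438. All untreated arrays of the series lay on 1 slide and all tunicamycin arrays on the other, and what belongs to the slide and what to tunicamycin cannot be told apart.

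**Figure D1:**
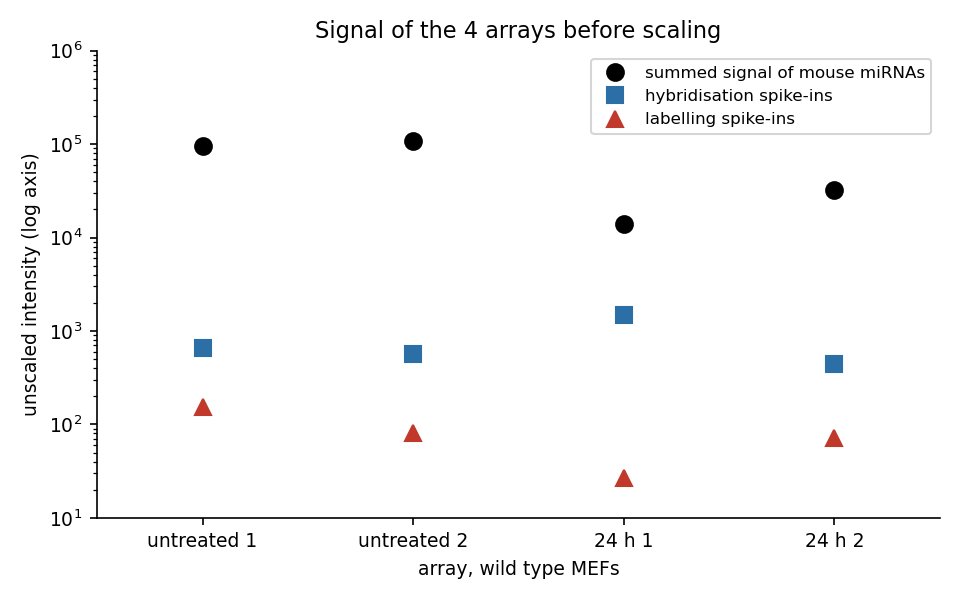
Unscaled intensity on a log axis for the 4 wild type arrays: the summed signal of mouse miRNAs (circles), the hybridisation spike-ins (squares) and the labelling spike-ins (triangles). The first 24 h array has the lowest miRNA total (14100), the lowest labelling spike-in signal (27) and the highest hybridisation spike-in signal (1470).

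Values below are log2 scaled signals, that is, signals after each array was brought to the same 75th percentile over the 95 miRNAs detected on all 12 arrays. They therefore show change relative to the bulk of detected miRNAs, not change in amount per cell. On this scale the lowest detected signals were 2.47 and 1.83 on the untreated arrays but 4.50 and 2.99 on the 24 h arrays, so the first 24 h array could not follow a weak miRNA down. Values under the common floor of 3.33 were set to it. The RNA is of whole cultures, where fewer cells of a type and less RNA per cell cannot be told apart.

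Of the 256 tested miRNAs, 7 were higher (2.73%) and 38 lower (14.8%) at 24 h than untreated, 17.6% in either direction (limma, adjusted p under 0.05). In 141 miRNAs no array of the 4 gave a floor value, and 5 of them were higher (3.55%) and 20 lower (14.2%), 17.7% together. Among the 112 detected on all 4 arrays, 5 were higher (4.46%) and 14 lower (12.5%), 17% together, and the median difference was -0.07. These 19 carry the account that follows, since both groups measured them. All 19 are read by more than 1 probe, and in 17 every probe moved in the direction of the whole. The exceptions were miR-30a, where 2 of 3 probes did, and miR-362-5p, where 2 of 4 did. The split between rises and falls depends on the scaling. Without scaling, 1 miRNA was higher and 144 lower, with a median difference of -1.53 over the tested miRNAs. After normexp background correction 6 were higher and 4 lower. After scaling on the labelling spike-ins, an alternative added after the data were seen, 1 was higher and 7 lower. The 5 rises stayed positive but lost their limma calls with quantile normalization, with the percentile over all mouse miRNAs and with normexp, and 7, 2 and 3 of the 14 falls kept theirs. Counts within the lists below are to be read against 2.73% higher and 14.8% lower over all tested miRNAs.

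Both arms of miR-31 rose. The miR-31 gene lies on chromosome 4, and miR-31 is best known from work on tumour invasion, where it represses regulators of cell movement. The mature miR-31 maps to chr4:88910614-88910635 and miR-31* to chr4:88910577-88910599, both on the minus strand of GRCm38.p6. For miR-31* the log2 scaled signals were 6.79 and 6.75 untreated and 7.89 and 7.74 at 24 h. Both 24 h arrays lay above both untreated arrays, by a log2 difference of 1.04 (SE 0.13, limma adjusted p = 0.00133). For miR-31 they were 8.52 and 8.38 untreated and 9.01 and 9.21 at 24 h, again without overlap. Its log2 difference was 0.66 (SE 0.13, limma adjusted p = 0.0109). The rise of miR-31* held its call when any 1 of the 4 arrays was left out but not with quantile normalization (1.17, adjusted p = 0.0632), the percentile over all mouse miRNAs (1.18, 0.087) or normexp (1.03, 0.0988). Of the other arm, the rise of miR-31 had an adjusted p of 0.0935 without untreated replicate 2 and 0.057 without 24 h replicate 2. Both rises are relative: without scaling the differences were -1.10 and -1.48, and on the spike-in scale 0.24 and -0.15.

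In the let-7 family, which promotes differentiation and represses Ras and Hmga2, 2 of 9 tested members rose and none fell, with a family median of 0.05 (-0.21 after quantile normalization, -2.09 unscaled) against 0 over all tested miRNAs. The values of let-7b were 10.15 and 10.20 untreated and 10.98 and 10.74 at 24 h. The groups did not overlap, and the log2 difference was 0.68 (SE 0.12, limma adjusted p = 0.00686). For let-7e they were 9.09 and 9.10 untreated and 10.17 and 9.63 at 24 h, a log2 difference of 0.81 (SE 0.22, limma adjusted p = 0.0476). The first 24 h array was the higher one in both cases. Relatives with the same seed did not pass: let-7c differed by 0.26 (SE 0.15) and let-7a by 0.01 (SE 0.25). The let-7e call was lost without 24 h replicate 1 (adjusted p = 0.166) and without either untreated array (0.185 and 0.193), and that of let-7b without untreated replicate 1 (0.0504). Unscaled, let-7b and let-7e differed by -1.46 and -1.34, so these rises too are relative to the other miRNAs.

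The miR-30 family, which includes repressors of the autophagy gene Beclin 1, split. Its member miR-30a read 7.49 and 7.46 untreated and 7.84 and 7.97 at 24 h, a log2 difference of 0.43 (SE 0.10, limma adjusted p = 0.0233). The groups did not overlap, but 1 of its 3 probes moved the other way, by -0.32. Without scaling the difference was -1.72, and without 24 h replicate 2 or without untreated replicate 1 or 2 the adjusted p was 0.114, 0.105 and 0.142. The other 4 tested members lay below zero without passing: miR-30c, for example, differed by -0.55 (SE 0.17) and miR-30e, 1 base of 22 away from miR-30a, by -0.63 (SE 0.32). The family median was -0.55.

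**Figure D2:**
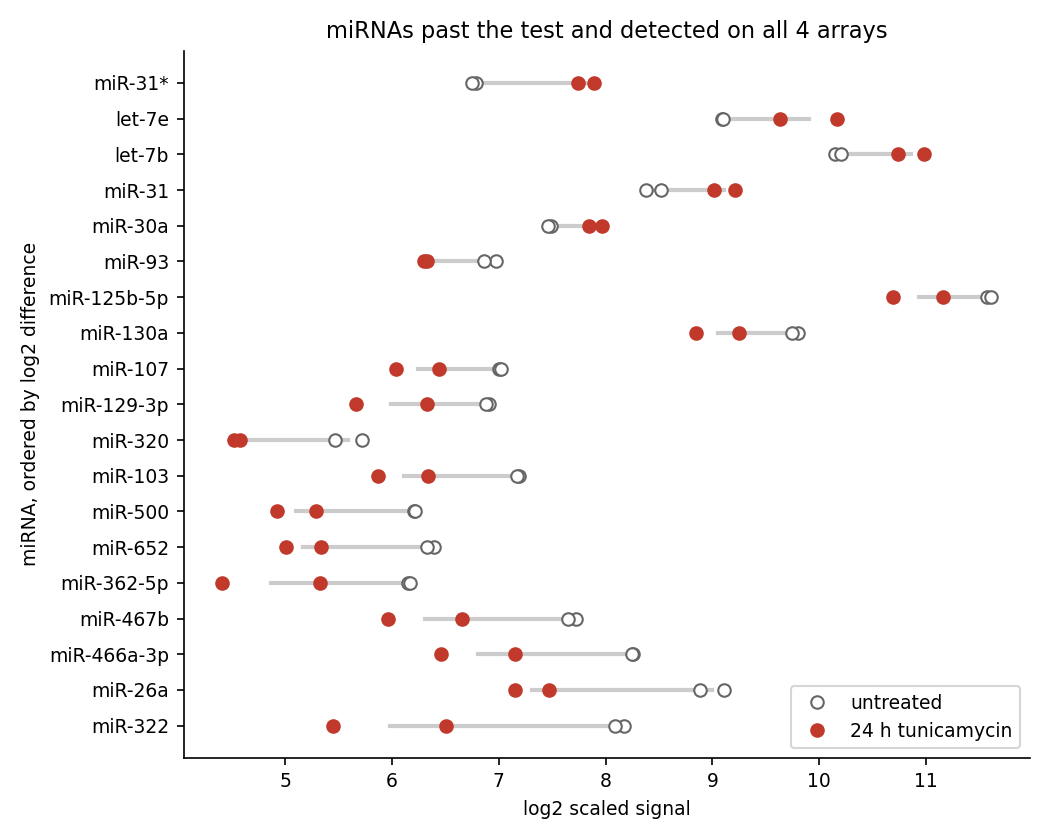
Log2 scaled signal (x axis) of the 19 miRNAs that passed the test and were detected on all 4 wild type arrays, ordered by log2 difference (y axis). Open circles are untreated arrays, filled circles 24 h arrays and grey lines join the group means. In none of the 19 do the groups overlap. The 5 rises at the top turn to falls without scaling (-1.10 to -1.72).

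Among the 14 falls detected on all 4 arrays, miR-26a and miR-322 kept their calls in the most alternatives. The miR-26 family represses the histone methyltransferase Ezh2, and its 26a genes sit in the phosphatase genes Ctdspl and Ctdsp2. The log2 scaled signals of miR-26a were 8.88 and 9.11 untreated and 7.47 and 7.15 at 24 h, so the groups stood far apart. Its log2 difference was -1.69 (SE 0.22, limma adjusted p = 0.00197). It stayed past the threshold in 21 of 22 alternatives. Its relative miR-26b differed by -0.66 (SE 0.26, adjusted p = 0.147).

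With a seed shared with miR-15 and miR-16, miR-322 belongs to a family that represses cyclins and Bcl2. It maps to chrX:53054306-53054327, minus strand. Its values were 8.17 and 8.09 untreated and 6.51 and 5.45 at 24 h. The 24 h arrays were the more scattered pair but both lay well below the untreated pair, with a log2 difference of -2.15 (SE 0.32, limma adjusted p = 0.00362). The call held in 20 of 22 alternatives. Of the 6 tested members of the miR-15/16 family, 2 fell, the other being miR-195, and none rose, beside 14.8% lower over all tested miRNAs. The family median was -0.49, and miR-16, at -0.49 (SE 0.24), did not pass. The fall of miR-195 (-0.89, SE 0.22, adjusted p = 0.0303) lost its call whichever of the 4 arrays was left out (adjusted p 0.0817 to 0.146).

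Both members of the family of miR-103 and miR-107 fell. They lie in introns of the pantothenate kinase genes Pank1, Pank2 and Pank3 and are known to dampen insulin signalling. For miR-103 the values were 7.19 and 7.17 untreated and 6.34 and 5.87 at 24 h, a log2 difference of -1.07 (SE 0.17, limma adjusted p = 0.00524). For miR-107 they were 7.0 and 7.02 against 6.44 and 6.04, a log2 difference of -0.77 (SE 0.16, adjusted p = 0.0159). Neither pair of groups overlapped. The miR-103 call held without any 1 array, and that of miR-107 only without 24 h replicate 1, with adjusted p of 0.0567 without 24 h replicate 2 and of 0.0939 and 0.104 without an untreated array. As noted above, their sequences differ at 1 position.

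Several further abundant miRNAs fell by smaller amounts. The regulator of p53 and differentiation miR-125b-5p read 11.57 and 11.61 untreated and 11.16 and 10.69 at 24 h, a log2 difference of -0.67 (SE 0.15, limma adjusted p = 0.0232). For miR-130a, which represses Pparg, the values were 9.80 and 9.74 against 9.25 and 8.85, a log2 difference of -0.72 (SE 0.17, adjusted p = 0.0233). Both kept their direction in every alternative run, yet lost the call without 24 h replicate 2 (adjusted p 0.0512 and 0.109) and without either untreated array (0.104 to 0.130). The X-linked miR-652, from an intron of Tmem164, read 6.39 and 6.33 untreated and 5.34 and 5.01 at 24 h, a log2 difference of -1.19 (SE 0.17, adjusted p = 0.00301) that held without any 1 array. The Drosha-independent miR-320 read 5.72 and 5.47 against 4.58 and 4.52, a log2 difference of -1.04 (SE 0.18, adjusted p = 0.00709). Both calls were lost with quantile normalization, with the percentile over all mouse miRNAs and with normexp, where miR-652 differed by -0.43 and miR-320 by -0.03. On the total gene signal that the scanning software computes, miR-652 and miR-320 turned to 1.79 and 2.09. There miR-320 passed the test as a rise (limma adjusted p = 0.00904) and miR-652 did not (0.31). The cause was not tested.

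Of the miR-106b~25 cluster, which sits in the replication gene Mcm7 and is known to restrain the pro-death gene Bim, miR-93 fell and its neighbours did not pass. Its values were 6.97 and 6.86 untreated and 6.33 and 6.30 at 24 h, a log2 difference of -0.60 (SE 0.11, limma adjusted p = 0.0108), with no overlap. This fall also depends on the summary of the probes: it turned to 2.43 with the total gene signal, past the test in that direction (limma adjusted p = 0.000192). It was lost without untreated replicate 1 or 2 (adjusted p 0.105 and 0.0698). In the same cluster miR-106b differed by -0.23 (SE 0.22) and miR-25 by -0.01 (SE 0.15). Sharing the seed of miR-93 but lying in the miR-17~92 cluster, miR-20a differed by 0.39 (SE 0.32). None of the 6 tested members of miR-17~92 passed the test, and their median was 0.33 (-1.82 unscaled and -0.48 on the spike-in scale).

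The last of the 14 falls were miR-466a-3p, miR-467b, miR-500, miR-362-5p and miR-129-3p. Their log2 differences were -1.44, -1.38, -1.11, -1.29 and -0.90, with adjusted p from 0.0091 to 0.0445. Each of these calls was lost without either untreated array, and the highest adjusted p without 1 array were, in the same order, 0.0601, 0.137, 0.105, 0.150 and 0.215. The total gene signal turned miR-500, miR-362-5p and miR-129-3p to 0.39, 1.01 and 3.83. There miR-129-3p passed the test as a rise (limma adjusted p = 5.11e-08), as it did with the deposited log2 values (1.97, 0.015).

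The names miR-297, miR-466, miR-467 as well as miR-669 cover a large group of repeated miRNAs, and 24 of the 29 tested ones lie in Sfmbt2, a Polycomb group gene on chromosome 2. At 24 h 3 of the 29 were lower and none higher, a share near the 14.8% lower over all tested miRNAs. Their median was 0.41, but -0.79 without scaling, -0.75 over those detected on all 12 arrays and -0.19 with floor values left out. The members that fell were miR-466a-3p, miR-467a and miR-467b, while the rest ran up to 2.03 without passing. Many of these miRNAs are near copies, so their probes may share signal.

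A second set of falls concerned miRNAs that the 24 h arrays no longer detected. Of 40 miRNAs detected on both untreated arrays and on neither 24 h array, 17 passed the test. Their direction is set by that choice, so the count is only a description. With normexp 9 of the 17 changed sign. For these only a bound of the fold is given, under the main background correction. It uses the lowest signal detected on each 24 h array or, if higher, the miRNA's own value. The largest bound was that of miR-378, from the Ppargc1b gene of mitochondrial metabolism, which read 6.85 and 6.96 untreated and was at least 7.05-fold lower (limma adjusted p = 0.000591). A repressor of the DNA methyltransferase Dnmt1, miR-152 read 5.99 and 6.11 untreated and was lower by at least 4.26-fold (6.22e-05). From an intron of the X-linked Chm gene, miR-361 read 6.08 and 6.17 and had a bound of at least 4.11-fold (0.000918). These untreated signals lay well above what the 24 h arrays could detect. The mesenchymal miR-143 read 5.59 and 6.01 and was lower by at least 2.82-fold (0.0108). The hypoxia-induced miR-210 was at least 1.89-fold lower (limma adjusted p = 0.000123). Log2 differences with normexp fell short of these bounds: -1.32 for miR-378, -0.73 for miR-152, -0.61 for miR-361, -0.27 for miR-143 and -0.02 for miR-210. At 24 h miR-210 was set to the floor on both arrays and miR-152 lay at or near it (3.33 and 3.41). Leaving out 1 of the 24 h arrays could thus hardly change either. Values set to the floor show no spread between arrays, so the p-value of miR-210 measures none at 24 h. With a higher floor of 4.93 miR-210 differed by 0 and miR-152 by -1.11. The calls of miR-378 and miR-361 held without any 1 array. That of miR-143 was lost without untreated replicate 2 (adjusted p = 0.0935) and 24 h replicate 2 (0.0525), and that of miR-146a without any 1 of the 4 (0.0554 to 0.0947).

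Both members of the miR-146 family, which NF-kappaB induces and which represses the adaptors Traf6 and Irak1, were lower. For miR-146b the values were 7.26 and 7.25 untreated and 4.50 and 3.33 at 24 h. It was detected on 1 of the 24 h arrays, and both lay far below the untreated pair, with a fitted log2 difference of -3.34 (SE 0.41, limma adjusted p = 0.00133) whose size depends on the floor set for the undetected array. The call held without any 1 array. For miR-146a they were 5.73 and 5.98 untreated and 3.41 and 3.33 at 24 h, where it was not well above background on either array. Its bound was at least 3.84-fold lower (limma adjusted p = 0.015), but with normexp the log2 difference was -0.77, short of it. The shared seed and the 2 differing positions make a split of signal between them possible.

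A pair of weak miRNAs went the other way. Detected on both 24 h arrays and on neither untreated array, miR-194, better known from epithelial cells of gut, liver and kidney, read 6.84 and 6.63 at 24 h and lay at the floor untreated. It was at least 10.6-fold higher (limma adjusted p = 0.0159), but 1 of its 2 probes showed no change. With normexp its log2 difference was 2.64, short of that bound. The call was lost when any 1 array was left out (adjusted p 0.0577 to 0.0947). From the imprinted Dlk1-Dio3 region, miR-337-5p lay at the floor untreated and read 4.38 and 4.07 at 24 h, with 1 array of each group detecting it. Its fitted log2 difference was 0.90 (SE 0.11, limma adjusted p = 0.00133), from 1 of its 2 probes. Both untreated arrays were set to the floor, so leaving out 1 of them could not change the difference. It ran from 0.74 to 1.05 without any 1 array. It was -0.20 without scaling, -0.38 on the total gene signal and 0 with the higher floor of 4.93.

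Larger rises that failed the test were more common. Of 29 tested miRNAs with a log2 difference over 1, 2 passed and 27 did not. In 26 of those 27 the second 24 h array was the higher one, and 17 lay at the floor on at least 1 of the 4 arrays. For example miR-877*, whose precursor is a spliced intron of Abcf1, read 5.28 and 3.61 untreated and 7.33 and 8.53 at 24 h (log2 difference 3.49, SE 1.23, adjusted p = 0.115). For miR-574-3p the values were 6.29 and 4.83 untreated and 6.77 and 9.55 at 24 h (2.60, SE 1.82, adjusted p = 0.44). In all 27 the difference at 12 h was above that at 24 h. These were singled out after their values were seen.

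In the lists tied to the unfolded protein response, few members passed the test, a share near that of all tested miRNAs. Of 3 tested miRNAs that IRE1 has been reported to cleave, 1 fell, miR-125b-5p, and the p53-induced miR-34a read 6.99 and 6.93 untreated and 7.62 and 7.55 at 24 h (0.62, SE 0.31, adjusted p = 0.251). Of 10 tested miRNAs linked to PERK, ATF6, CHOP or XBP1, 1 fell, miR-93, and none passed upward, with a median of -0.13 and a range from -0.88 to 1.45, beside 14.8% lower over all tested miRNAs. The best known of them were not detected on both 24 h arrays: miR-211 was detected on neither and miR-346 on 1. The PERK-induced miR-211 lay at the floor untreated and read 4.31 and 4.60 at 24 h (1.13, SE 0.52, adjusted p = 0.21). The XBP1-induced miR-346 lay at the floor on 3 arrays and read 6.23 on the second 24 h array (1.45, SE 1.11, adjusted p = 0.494), a value outside the naming rule that is given for its known role.

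**Figure D3:**
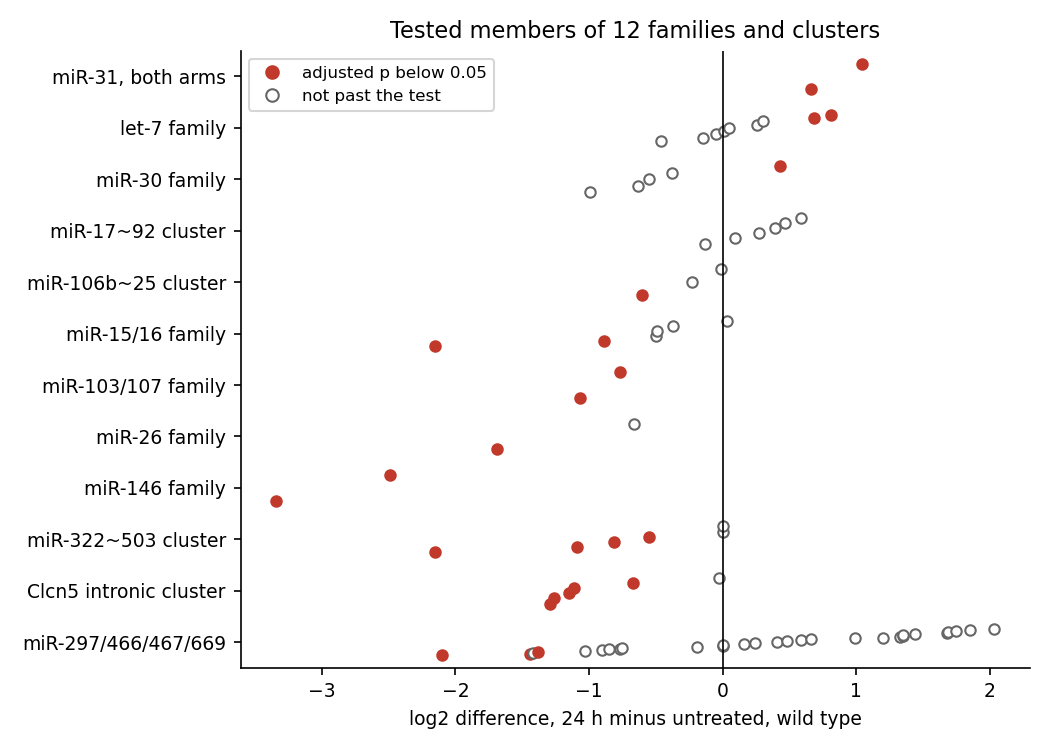
Log2 difference between 24 h and untreated wild type MEFs (x axis) for the tested members of 12 seed families and genomic clusters (y axis). Filled points passed the limma test and open points did not. Both arms of miR-31 lie to the right of zero, miR-103, miR-107 and both members of the miR-146 family to the left, and the let-7 and miR-30 families straddle it. Without scaling the points of the miR-31, let-7 and miR-30 rises move below zero.

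Many falls came from the X chromosome, a pattern noticed after the values were seen and given as a description. Of 24 tested X-linked miRNAs, 12 were lower (50%) and none higher, with a median of -0.56. Of 223 tested miRNAs placed on other chromosomes 25 were lower (11.2%), with a median of 0. Of those detected on all 4 arrays 4 of 7 X-linked and 9 of 101 others were lower. In knockout MEFs the median of the X-linked miRNAs was -0.10. Of the 12 X-linked calls, 9 come from the pair of clusters named next and may share transcripts, so they are not independent of each other.

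In the cluster within an intron of the chloride channel gene Clcn5, 5 of 6 tested members were called lower, with a median of -1.13 that was 0 after normexp correction and -1.93 on the spike-in scale. It includes miR-500 at chrX:7237695-7237716 and miR-362-5p at chrX:7242019-7242042, both on the minus strand. For miR-500 the values were 6.21 and 6.22 untreated and 4.92 and 5.29 at 24 h, with no overlap. For miR-362-3p, detected on 1 of the 24 h arrays, they were 5.66 and 5.63 against 4.39 and 4.61 (-1.15, SE 0.25, adjusted p = 0.0176), a call lost without any 1 of the 4 arrays (0.0512 to 0.0939). Around miR-322, 4 of 6 tested cluster members were called lower, but miR-503, miR-542-3p and miR-542-5p had untreated means (4.14, 3.87 and 4.42) below what the first 24 h array could detect, so their falls were not measured there. The same holds for miR-532-3p of the Clcn5 cluster, at 3.87 and 4.12 untreated, where 1 of 4 probes moved with the fall. Next to miR-322, miR-503 maps to chrX:53054027-53054049, and 1 of its 2 probes was unchanged. It passed the test (limma adjusted p = 0.00235) with both 24 h arrays set to the floor of 3.33, so no size of its fall is given. With normexp its log2 difference was -0.10.

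The fibroblast label was checked against miRNA markers. Of 11 fibroblast and mesenchymal markers 10 were tested, of which 1 rose (miR-31) and 2 fell (miR-143 and miR-152), with a median of -0.45. The abundant fibroblast miRNA miR-21 read 13.98 and 13.88 untreated and 13.92 and 13.35 at 24 h (-0.30, SE 0.20, adjusted p = 0.421), so the groups overlapped. The summed scaled signal of the list was 21400 and 20000 untreated and 20700 and 15100 at 24 h. Of 8 blood markers 7 were detected on none of the 4 arrays, and the list's sum was 81.3 and 85.5 untreated and 83.4 and 69.9 at 24 h, most of it miR-155. None of the 8 epithelial, 2 endothelial or 5 muscle markers was detected on any of the 4 arrays. The neural list, led by miR-129-3p, summed to 203 and 200 untreated and 136 and 84.2 at 24 h, with 5 of its 8 markers detected on none of the 4 arrays. The embryonic stem cell list summed to 34.4 and 42.6 against 121 and 57.6, but 11 of its 12 markers were detected on none of the 4 arrays.

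The labels do not say how many embryos or lines each genotype came from. What belongs to XBP1 and what to the line thus cannot be told apart in the next comparison. It tested the difference between the 24 h responses of wild type and knockout MEFs. This difference passed for 12 of 256 miRNAs (4.69%), 5 with the more positive response in wild type (1.95%) and 7 with the more negative one (2.73%). Of the 12, 10 had a value at the floor on at least 1 of the 8 arrays, while 2 passed, miR-155 and miR-497, of the 118 that no array of the 8 put at the floor. The 12 include miR-152, miR-195, miR-503 and miR-337-5p, described above for wild type. For both arms of miR-31 and for miR-322 the difference did not pass. The responses of miR-31* were 1.04 in wild type and 0.91 in knockout, those of miR-31 0.66 and 0.73 and those of miR-322 -2.15 and -2.05. For miR-26a they were -1.69 and -1.16, a difference of -0.53 (SE 0.32, adjusted p = 0.619), which does not show that they are alike.

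**Figure D4:**
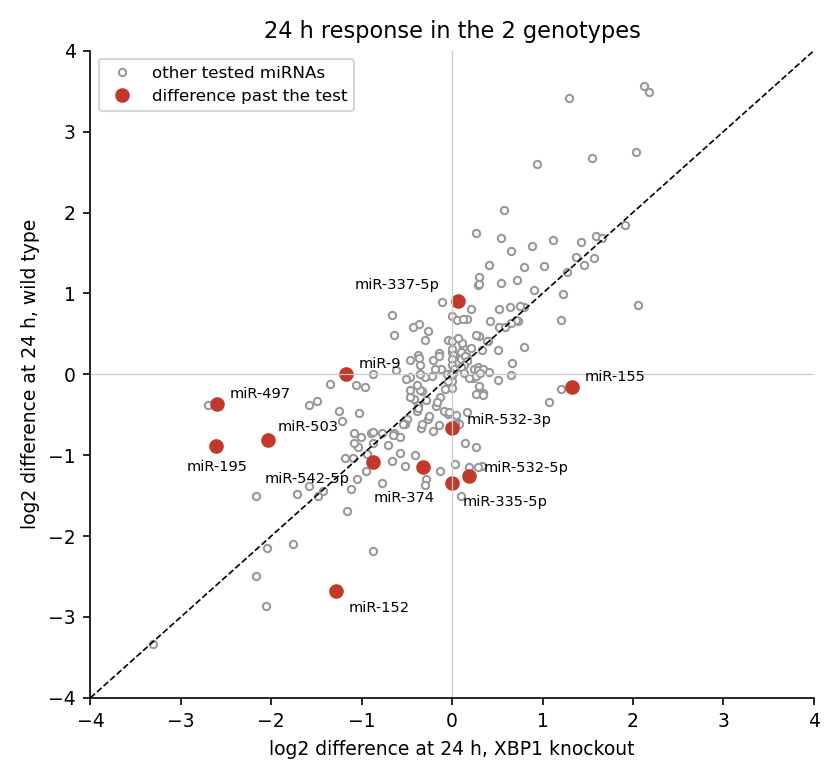
Log2 difference at 24 h against untreated in XBP1 knockout (x axis) and wild type MEFs (y axis) for the 256 tested miRNAs. Filled, named points passed the test of the difference between genotypes, and the dashed line marks equal responses. To the left of the line lie miR-195 and miR-497, lower in knockout (-2.61 and -2.60) than in wild type (-0.89 and -0.37).

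The miRNAs miR-195 and miR-497 share 1 transcript on chromosome 11 and hold back the cell cycle. In wild type miR-497 read 5.09 and 5.04 untreated and 5.00 and 4.38 at 24 h, and in knockout 6.23 and 6.27 untreated and 3.82 and 3.48 at 24 h. Neither pair of groups overlapped, but the gap was 0.04 in wild type, and 1 of the knockout 24 h arrays detected it. The difference between the responses was 2.22 (SE 0.33, limma adjusted p = 0.0103), or 2.31 and 2.13 within the first and second replicates, whose wild type and knockout arrays shared a scan. For miR-195, which no knockout 24 h array detected, it was 1.72 (SE 0.31, adjusted p = 0.0266), a call lost without any 1 of both knockout untreated, both wild type untreated or the second wild type 24 h array (0.0619 to 0.0965).

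The immune-related miR-155 read 6.21 and 6.27 untreated and 6.18 and 5.99 at 24 h in wild type, and 3.44 and 3.41 untreated and 4.84 and 4.68 at 24 h in knockout. It was lower in every knockout array than in any wild type array while its 24 h values lay above the untreated ones in the knockout and below them in wild type. The difference between responses was -1.49 (SE 0.30, limma adjusted p = 0.0361). That call was lost without either knockout untreated array (0.138 and 0.128), either wild type untreated array (0.106 and 0.122) or the second wild type 24 h array (0.0974), and with scan as a fixed block (0.0532). On the software's total gene signal the difference was -0.03. For miR-152 the knockout read 5.63 and 5.80 untreated and 4.25 and 4.63 at 24 h, whereas neither wild type 24 h array detected it. The fitted difference of -1.40 (adjusted p = 0.0125) therefore depends on the floor and is no exact size, and unscaled it was 0.05.

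Set against 12 h of tunicamycin, the 24 h arrays differed in 56 of 256 miRNAs (21.9%), 8 higher (3.12%) and 48 lower (18.8%). With quantile normalization 68 were higher and 43 lower, and with the percentile taken over all mouse miRNAs 47 and 46, so the split depends on the scaling. Among the 111 detected on all 4 treated arrays 8 were higher and 8 lower, and the median difference was 0.35. The 12 h and 24 h comparisons share the untreated arrays, so their values are given side by side. The miRNAs of the time course paragraphs below that the naming rule did not pick were chosen for detection on all 4 treated arrays, after their values were seen. The exception is miR-346, which was detected on 1 of the 24 h arrays and is given for its known role.

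For some miRNAs the change was in place by 12 h. The difference from untreated was -1.76 at 12 h and -1.69 at 24 h for miR-26a, and -1.91 and -2.15 for miR-322. For others it was larger at 24 h: 0.41 and 1.04 for miR-31*, and 0.13 and 0.66 for miR-31. Between 12 h and 24 h miR-31* rose by 0.63 (SE 0.13, limma adjusted p = 0.0146), or 0.71 and 0.55 within the 2 scans that held both times. That call was lost without 12 h replicate 2 (0.0634) and without 24 h replicate 1 (0.0728). Another course was a dip at 12 h. The collagen-repressing miR-29a read 9.53 and 9.47 untreated, 8.95 and 9.06 at 12 h and 9.60 and 9.73 at 24 h. It lay lowest at 12 h on both arrays and was higher at 24 h than at 12 h by 0.66 (SE 0.10, adjusted p = 0.00468), or 0.65 and 0.67 within scans. Part of these steps was common: the median difference between times was 0.35 over the 111 miRNAs detected on all 4 treated arrays. Unscaled, the miR-31* and miR-29a differences between times were 0.03 and 0.06.

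The last course was a peak at 12 h. From Sfmbt2, miR-669c read 6.54 and 5.94 untreated, 9.91 and 10.09 at 12 h and 7.15 and 7.71 at 24 h. It was lower at 24 h than at 12 h on both arrays, by -2.57 (SE 0.72, limma adjusted p = 0.0426) and by -2.77 and -2.38 within scans. Its call was lost with scan as a block (0.0593) and without any 1 of the 4 arrays (0.0709 to 0.174). For miR-211 the values at 12 h were 6.24 and 7.68, above the 4.31 and 4.60 at 24 h (-2.50, adjusted p = 0.0158), and for miR-346 they were 8.26 and 9.19, above the 3.33 and 6.23 at 24 h (-3.95, adjusted p = 0.0429). No 24 h array detected miR-211 and 1 detected miR-346, so the sizes of these differences are uncertain. The miR-211 call was lost without 12 h replicate 2 (0.0563) or 24 h replicate 1 (0.0728), and that of miR-346 without 12 h replicate 1 (0.0824), 12 h replicate 2 (0.197) or 24 h replicate 1 (0.171).

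**Figure D5:**
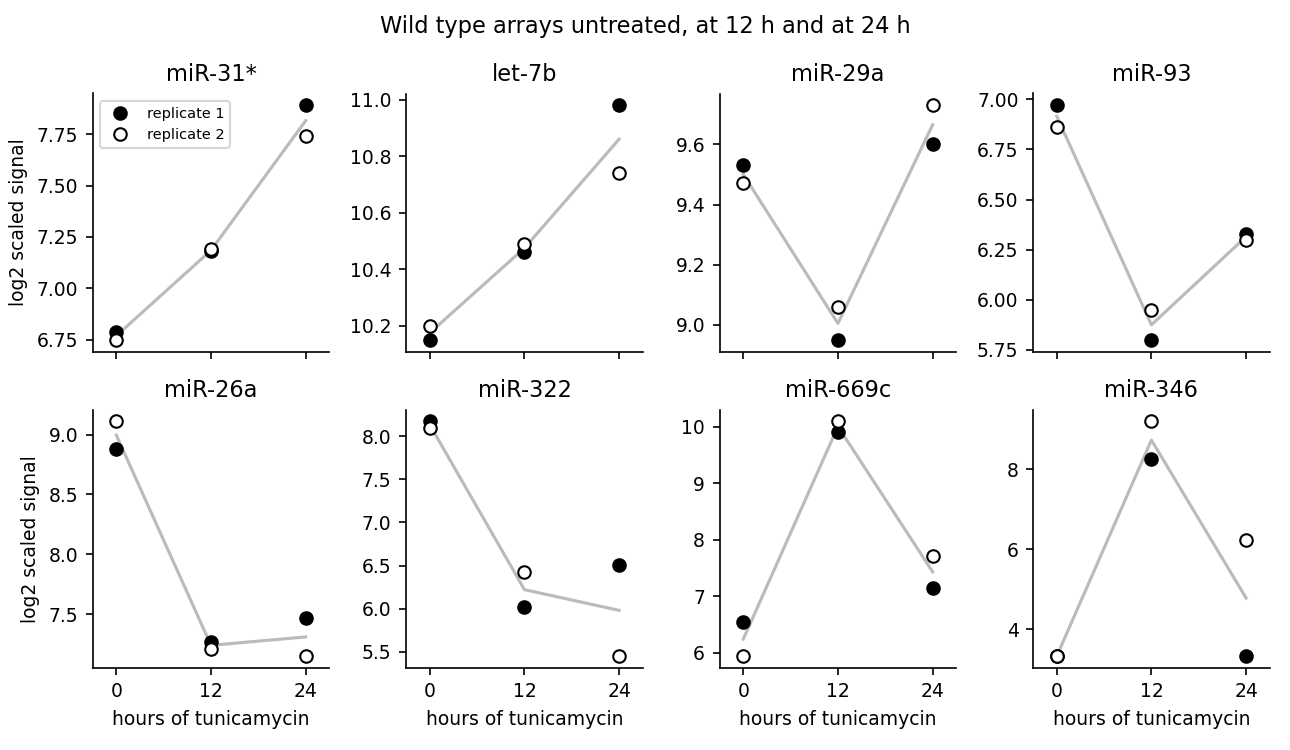
Log2 scaled signal (y axis, a separate scale per panel) of 8 miRNAs on the wild type arrays untreated (0 h), at 12 h and at 24 h of tunicamycin (x axis). Filled and open circles are the replicates and the line joins the means. The steps of miR-31* and let-7b go upward, miR-26a and miR-322 are low at both times, miR-29a and miR-93 dip at 12 h and miR-669c and miR-346 peak there. Without scaling the 24 h values of miR-31* and let-7b lie below untreated.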

How the data were processed

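Agilent 1-colour mouse miRNA arrays were read with Feature Extraction 10.7.1.1, per the submitters' processing notes, from 100 ng of total RNA, per the labels' protocols. The authors deposited background-subtracted spot intensity, with no scaling between arrays, and a table of log2 total gene signal. The deposited log2 values equal log2 of that signal within 1.15e-06. No deposited array had saturated spots.

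Spots marked as outliers (298 to 486 per array) were left out, spots of a probe averaged and probes of a miRNA summed. Arrays were scaled to a common 75th percentile over the 95 miRNAs detected on all 12, and values below the 5th percentile of detected signals (log2 3.33) were set to it. A miRNA was tested where both arrays of at least 1 of 6 groups detected it. limma 3.58.1 in R 4.3.3 was fitted with 1 mean per group over all 12 arrays, with an intensity trend and Benjamini-Hochberg adjustment over 256 miRNAs. The number of arrays, 2 per group, limits the precision. The fit shares 1 spread per miRNA across the groups. Yet the median replicate standard deviation over the 95 miRNAs was 0.04 in untreated and 0.24 in 24 h wild type. For miRNAs scattered at 24 h the SE may thus be too small, as for miR-322 (24 h standard deviation 0.74, SE 0.32). Where both arrays of a group were set to the floor, their spread is 0 by construction. The SE and p-value of such a miRNA may be too small as well, as for miR-210 (SE 0.11). Bounds use, per array, the higher of the lowest detected signal, the floor and the miRNA's own value. Normexp was run on the median signal and background columns, in place of the planned mean signal.

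Named miRNAs were the 10 largest rises and falls past the test, all past it above the floor on all 4 arrays, up to 4 of each list by p, the 10 highest untreated signals and up to 10 from each of the other comparisons; not all are printed. The members and lists were chosen with earlier results of these data known. Of 256 tested miRNAs, 247 matched a RefSeq name, and 15 of the 19 detected ones past the test a mature sequence. Outside that rule miR-30e was named after its values were seen.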

Additional observations from a re-analysis of the deposited data

Results flagged for a closer look

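Each result here was singled out because the test of the difference itself found unlike responses to 24 h of tunicamycin in wild type and XBP1 knockout MEFs (limma, wild type minus knockout, log2 scale, adjusted p under 0.05). Where all 4 of the 24 h arrays lay at the floor, the difference only reflects the untreated levels, and where arrays of 1 group did not detect the miRNA its size depends on the floor. Values set to the floor show no spread between arrays, so the p-values of such miRNAs may be too small.

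A more positive response in wild type was found for miR-497 (2.22, adjusted p = 0.0103), miR-195 (1.72, 0.0266), miR-503 (1.23, 0.00566), miR-9 (1.17, 0.000338) and miR-337-5p (0.83, 0.0269). A more negative one was found for miR-155 (-1.49, 0.0361), miR-532-5p (-1.45, 0.00566), miR-152 (-1.40, 0.0125), miR-335-5p (-1.35, 0.000972), miR-374 (-0.82, 0.00566), miR-532-3p (-0.67, 0.00936) and miR-542-5p (-0.22, 0.0361). All 4 of the 24 h arrays lay at the floor for miR-503, miR-9, miR-532-3p and miR-542-5p. The knockout arrays of miR-335-5p lay at the floor both untreated and at 24 h, as did those of miR-532-3p. For miR-532-5p the untreated knockout arrays lay near the floor (3.34 and 3.42), so a fall in the knockout could hardly show. Both wild type 24 h arrays of miR-532-5p were at the floor, and unscaled its difference was -0.46.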

How the results depend on the processing

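At 24 h against untreated, 45 wild type miRNAs passed the test, and the count was 16 with the 75th percentile over all mouse miRNAs, 145 without scaling, 10 with normexp (60 at an unadjusted p under 0.05), 17 over miRNAs detected on all 12 arrays, 27 with floor values left out, 8 on the spike-in scale, and 24 to 41 without 1 array (24 and 26 without untreated replicate 2 and 1). The genotype difference passed for 12, and for 24 without scaling, 0 with normexp (limma, 3 unadjusted), 24 with the total gene signal, 0 with the deposited log2 values (limma, 13 unadjusted), 1 over miRNAs detected on all 12, 7 with all mouse miRNAs tested, 2 with floor values left out, 4 with its own groups only, 6 with array weights, 1 on the spike-in scale, and 10 to 44 without 1 array (44 and 20 without knockout 24 h replicate 1 and 2). For 24 h against 12 h, 56 passed, and 111 with quantile normalization, 93 with the percentile over all mouse miRNAs, 23 without scaling, 18 with the deposited values, 12 over miRNAs detected on all 12, 21 with floor values left out, 0 with its own groups only (limma, 65 unadjusted), 0 on the spike-in scale (limma, 53 unadjusted), and 30 to 63 without 1 array (30 without 12 h replicate 2, 34 without 24 h replicate 1). Fits without 1 array assume that the lone array of a group varies like the others. With the replicate number as a block the counts were 45, 13 and 54. The labels do not say that the numbers pair cultures, and deviations of same-numbered wild type untreated and 24 h arrays correlated at -0.49. With scan as a random block the counts were 45, 14 and 57. Untreated and tunicamycin arrays shared no scan, so at 24 h against untreated this block could not separate scan from tunicamycin. Spike-in scaling, median scaling and the fixed scan block were chosen after seeing the data. A like count need not mean the same miRNAs. At 24 h against untreated, the calls shared with the 45 in direction were 28 of 35 with quantile normalization and 23 of 53 with the total gene signal. They were 10 of 66 with the deposited log2 values and 17 of 30 with its own groups only.

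These values of miRNAs printed with a result changed sign, and where construction does not show why, the cause was not tested. At 24 h against untreated without scaling they were let-7b -1.46, let-7e -1.34, let-7a -2.13, let-7c -1.88, miR-31 -1.48, miR-31* -1.10, miR-30a -1.72 and miR-337-5p -0.20. With the deposited log2 values, also unscaled, they were let-7b -1.45, let-7e -1.32, let-7a -2.12, let-7c -1.87, miR-31 -1.47, miR-31* -1.09, miR-30a -1.16, miR-337-5p -2.20, miR-320 0.24, miR-93 0.58, miR-129-3p 1.97 and miR-362-3p 0.38. On the spike-in scale they were let-7b -0.12, miR-31 -0.15 and miR-30a -0.38. With the total gene signal they were miR-652 1.79, miR-320 2.09, miR-93 2.43, miR-500 0.39, miR-362-5p 1.01, miR-129-3p 3.83, miR-337-5p -0.38, miR-362-3p 0.17 and miR-155 1.60. Among these values, those of miR-320, miR-93, miR-129-3p and miR-155 passed the test in the turned direction. With normexp they were miR-362-5p 0.06, miR-335-5p 0.16, miR-542-5p 0.59, miR-195 0.29 and miR-374 0.25, and in all 9 of the 17 called falls that no 24 h array detected turned. For the genotype difference they were, without scaling, miR-152 0.05, miR-337-5p -0.20, miR-374 0.51 and miR-542-5p 0.53, with the total gene signal miR-337-5p -1.21 and miR-503 -0.78, and with normexp miR-335-5p 0.16. There miR-542-5p was also 0.08 with quantile normalization, 0.17 with the percentile over all mouse miRNAs and 0.74 on the spike-in scale. For 24 h against 12 h they were miR-31 -0.07, miR-30a -0.07 and miR-93 -0.16 without scaling, miR-31 -0.07, miR-30a -0.54 and miR-25 -1.07 with the deposited values, miR-30a -0.13 and miR-25 -0.66 with the total gene signal, miR-93 -0.03 with normexp and miR-466a-3p 0.69 on the spike-in scale. The dim 24 h arrays limit what can be said of miRNAs that were weak when untreated.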
